A study of Homo sapiens with 12 samples.

Results

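The C/EBP factors and 4 other transcription factors of myeloid differentiation were examined together: CEBPA, CEBPB, CEBPD, CEBPE, CEBPG, IRF8, GFI1, KLF4 and KLF2. Their H3K9ac regions were chosen by position alone, as all rows of the table that overlapped the RefSeq gene body with 20 kb added on each side. This gave 56 of the 47648 regions listed. Of these, 26 overlapped a gene body or lay within 1 kb of it and are called nearest rows, and the other 30 are called distal rows. The nearest row with the highest mean over the 6 libraries stands for each gene and is called its leading region.

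The cells were MOLM-13, a human acute myeloid leukaemia line that carries the KMT2A-MLLT3 fusion gene and a FLT3 internal tandem duplication. They were given WM-1119, a small-molecule inhibitor of the lysine acetyltransferase KAT6A, at 4 µM for 4 days (3 libraries), or DMSO, its solvent (3 libraries). No source used here gives the time in DMSO. The question behind the comparison is what blocking KAT6A does to chromatin marks in this line, and H3K9ac, acetylated lysine 9 of histone H3, marks active promoters and enhancers. All libraries come from 1 cell line, and nothing in the labels tells if replicates came from separate cultures. A p-value here therefore reflects only how much these samples vary, and that variation may be technical.

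C/EBP proteins are basic leucine zipper factors that bind DNA as dimers and switch on granulocyte and monocyte genes. C/EBPα starts the myeloid programme, C/EBPβ and C/EBPδ act in stress, inflammation and monocytes, C/EBPε drives late granulocyte maturation, and C/EBPγ, which lacks an activation domain, pairs with the others. IRF8 and KLF4 direct cells towards monocytes and dendritic cells, KLF2 restrains monocyte activation, and GFI1 is a repressor that favours neutrophils.

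The promoters of these genes differ in base composition, and 2 of them show the range beside their H3K9ac levels given further on. The 250 bases before the annotated start are from RefSeq, build GRCh38.p14, 5′ to 3′ on the gene's strand, with CG dinucleotides in capitals. CEBPA lies at chr19:33302535-33302784 on the minus strand and CEBPE at chr14:23119256-23119505 on the minus strand.
CEBPA: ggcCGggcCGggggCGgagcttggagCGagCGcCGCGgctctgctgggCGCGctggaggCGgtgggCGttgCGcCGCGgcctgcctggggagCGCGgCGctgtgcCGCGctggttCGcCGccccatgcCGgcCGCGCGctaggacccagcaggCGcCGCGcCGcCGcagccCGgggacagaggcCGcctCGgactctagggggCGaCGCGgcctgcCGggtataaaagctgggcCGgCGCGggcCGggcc
CEBPE: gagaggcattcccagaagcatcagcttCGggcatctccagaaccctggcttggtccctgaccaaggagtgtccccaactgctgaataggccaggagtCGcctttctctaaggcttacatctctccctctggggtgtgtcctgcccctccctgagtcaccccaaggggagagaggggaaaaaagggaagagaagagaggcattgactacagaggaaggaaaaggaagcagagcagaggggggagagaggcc
The CEBPA stretch held 41 CG dinucleotides and that of CEBPE 2. Over the first listed promoter of 15841 coding genes the median was 17, and 97.8% of them held fewer than CEBPA and 8.15% fewer than CEBPE. KLF2 also held 41, CEBPG 32, CEBPB and KLF4 25 each and GFI1 19 at the first start listed. The first listed start of IRF8 lies inside the gene body and its stretch held 2, and CEBPD had no entry in the promoter table. Each stretch lay wholly within an H3K9ac region.

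The CCAAT box gave the C/EBP family its name and is also bound by the factor NF-Y. CCAAT or its reverse complement ATTGG, on either strand, was present in 34.5% of the 15841 stretches. The CEBPG promoter at chr19:33373459-33373708 on the plus strand is shown because it alone among the first listed promoters of these genes held this motif, 2 times, in capitals here.
CEBPG: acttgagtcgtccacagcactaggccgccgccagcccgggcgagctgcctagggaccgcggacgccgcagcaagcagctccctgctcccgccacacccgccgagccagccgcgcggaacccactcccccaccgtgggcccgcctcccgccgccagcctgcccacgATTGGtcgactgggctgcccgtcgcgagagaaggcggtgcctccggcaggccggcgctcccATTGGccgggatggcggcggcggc
The C/EBP consensus TTGCNNAA, searched on both strands, occurred in 7.23% of all stretches and in none of these first promoters. The second listed start of GFI1 held it once, as TTGCGCAA, and also held 1 CCAAT. The second listed start of CEBPB held 1 CCAAT too. A match is a description of the letters and shows no binding. GGGCGG, a GC box that overlaps none of these motifs, occurred in 56% of all stretches. It occurred 2 times in CEBPA, 4 times each in the first CEBPB, KLF4 and KLF2 stretches and 1 time in the first GFI1 stretch.

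Values are CPM, reads per 1000000 reads in the listed regions, and the libraries differed in depth. They held 4542322, 9996190 and 12705349 reads in regions for WM-1119 replicates 1, 2 and 3, and 719329, 1298443 and 7481096 for DMSO replicates 1, 2 and 3. Finding 0 reads would allow a level of up to 0.236 to 0.660 CPM in the WM-1119 libraries and 0.401 to 4.17 CPM in the DMSO libraries, for counting error only. DMSO replicates 1 and 2 stood apart: regions below the median strength took 8.95% and 7.19% of their CPM, against 2.35% in DMSO replicate 3 and 2.19% to 3.35% in the WM-1119 libraries. Log2 changes of the 9 genes are therefore also given without DMSO replicates 1 and 2. This leaves DMSO replicate 3 as the only DMSO library, so these values carry no measure of spread among DMSO libraries. All 8 markers listed for the line, SPI1, FLT3, CD33, LYZ, HOXA9, MEIS1, LAMP5 and CEBPA, had a leading region with a mean of at least 10 CPM. Their summed level was 2813 to 3643 CPM in WM-1119 and 2370 to 3940 CPM in DMSO libraries. The T cell, B cell and epithelial marker lists each summed to at most 31.5 CPM in a WM-1119 library and 50.05 CPM in a DMSO library, both for B cell markers, with no region at CD3D, CD3G and MS4A1. In chromatin from a whole culture, fewer cells with the mark and less of the mark per cell cannot be told apart.

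H3K9ac covered the starts of all 9 genes, at very different levels. Levels of different genes are compared per length of the leading region, in CPM per kb. Neither input nor the copy number of a chromosome was divided out, so the order is one of signal and not of acetylation per gene copy. CEBPD stood highest in every library, at 136 ± 15.0 CPM per kb in WM-1119 and 97.2 ± 16.8 in DMSO (SD, n = 3 each), above nearly all of the 11878 leading regions of coding genes. CEBPE stood lowest in every library, at 7.12 ± 0.899 CPM per kb in WM-1119 and 10.1 ± 4.38 in DMSO (SD, n = 3 each), above 11.8% of leading regions. Between these lay CEBPG, CEBPA, GFI1 and CEBPB, at 70.8, 66.2, 53.4 and 39.3 CPM per kb in WM-1119 and 54.8, 56.1, 44.3 and 32.8 in DMSO. GFI1 held rank 4 and CEBPB rank 5 in each of the 6 libraries, while CEBPG and CEBPA exchanged ranks 2 and 3 and were each higher in 3 libraries. KLF4, KLF2 and IRF8 followed at 25.8, 23.6 and 22.6 CPM per kb in WM-1119 and 19.7, 20.99 and 21.5 in DMSO. The values of these 3 genes overlapped across the libraries, so their order was not resolved.

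**Figure D1:**
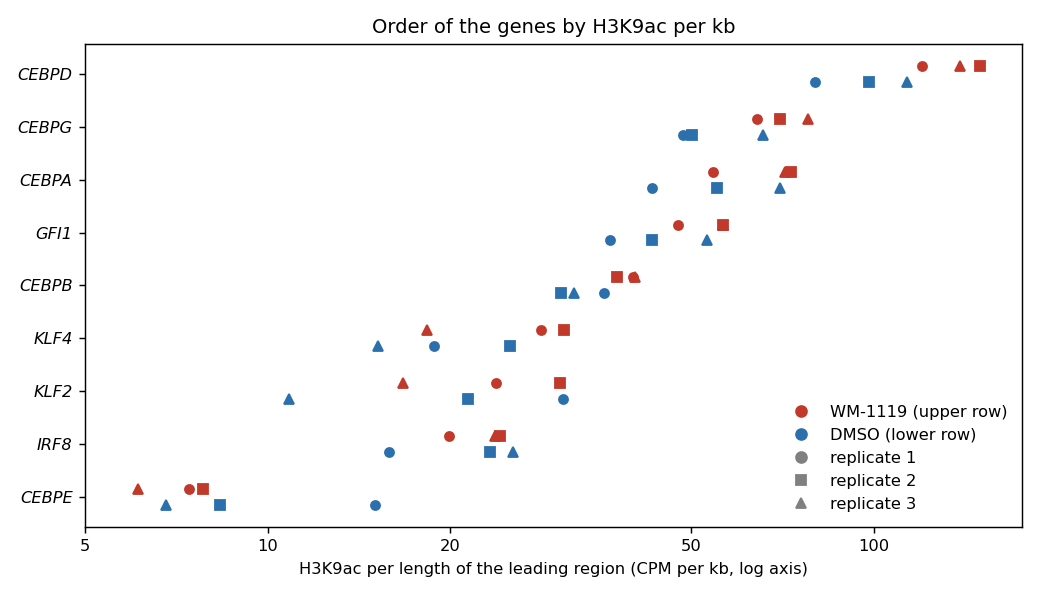
H3K9ac per length of the leading region (CPM per kb, log axis) for each gene, with 1 point per library, WM-1119 libraries in the upper row of each gene and DMSO libraries in the lower row. CEBPD is highest and CEBPE lowest in all 6 libraries, and KLF4, KLF2 and IRF8 overlap.

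The regions also differed in breadth. The GFI1 leading region ran over 12003 bp, wider than 99.8% of leading regions, and covered most of the gene. CEBPA, IRF8 and CEBPD had leading regions of 6393, 5531 and 4872 bp, and CEBPE one of 1572 bp. On hg38 the leading region of CEBPA lay at chr19:33298020-33304412, that of CEBPB at chr20:50190031-50194027, that of CEBPD at chr8:47734514-47739385, that of CEBPE at chr14:23118816-23120387 and that of CEBPG at chr19:33372806-33376077. The IRF8 region lay at chr16:85898061-85903591, GFI1 at chr1:92477092-92489094, KLF4 at chr9:107488211-107490725 and KLF2 at chr19:16324048-16326131, each over the annotated start. IRF8 therefore ranked higher by total CPM, above 86.5% of leading regions, than per kb, above 44.7%. The leading region of CEBPD also covers an end of SPIDR, a DNA repair gene beside it, and those of CEBPA, CEBPB and KLF2 overlap the non-coding genes CEBPA-DT, CEBPB-AS1 and KLF2-DT. The signal of such neighbours cannot be told apart here.

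Between WM-1119 and DMSO no region of these genes passed the test. Regions were tested with limma on log2(CPM + 1), which understates the change of weak regions, over the 44763 regions whose mean reached 1 CPM, and p-values were adjusted over all of them by the Benjamini-Hochberg method with a threshold of 0.05. Of the 56 rows 55 were tested, and 0 passed in either direction, while 3 rows in the higher direction and 8 in the lower one had an unadjusted p under 0.05. Over all regions limma called 0 higher (0%) and 27 lower (0.0603%), and at an unadjusted p under 0.05 2.58% were higher and 10.8% lower. edgeR and DESeq2, run on the reads of 5 libraries, called 0 regions each. With the replicate number as a block, 1 row of these genes passed, the leading region of CEBPD. Of all regions 0.25% were then called higher and 0.858% lower, and of leading regions 0.885% were called higher. Among leading regions with a mean of 100 to 700 CPM, where that of CEBPD lies, 2.88% were called higher.

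Of the 9 leading regions, 8 had higher values in WM-1119 and 1, that of CEBPE, lower. Their median log2 change was 0.26, beside 0.10 over the 11750 tested leading regions of coding genes, of which 63.2% were higher. Groups were separate in this direction at 2 of the 9, beside 12.7%, and 3 had an unadjusted p under 0.05, CEBPD, CEBPG and GFI1, beside 9.06%. All 3 lie between 100 and 700 CPM, where 24.8% of leading regions did so. The level mattered for this background: among leading regions with a mean of 100 to 700 CPM 93.5% were higher, with a median log2 change of 0.24, and among those of 10 to 100 CPM 68.5%, with a median of 0.11. The count of 8 of 9 is near what strong leading regions showed in these libraries. Within replicate numbers WM-1119 was higher in 3 of 3 at CEBPA, CEBPB, CEBPD, CEBPG, GFI1 and KLF4, in 2 of 3 at IRF8 and KLF2 and in 0 of 3 at CEBPE. Without DMSO replicates 1 and 2 the median of the 9 was 0.10, with 7 higher and 2 lower, beside 0.04 over all leading regions. The scaling moved the median log2 change of all regions, which was -0.47 in CPM, 0.01 after quantile normalization and 0.30 after centring each library on its median. The median of the 9 leading regions was 0.06 with 8 higher under quantile normalization, where IRF8 was the lower one, and 1.04 with all 9 higher under median centring.

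CEBPD, the gene of a C/EBP factor induced in inflammation and growth arrest, had the largest log2 change among the 9 leading regions with all 6 libraries. Without DMSO replicates 1 and 2 the leading regions of KLF2, KLF4 and CEBPB lay higher. The CEBPD region held 586, 730 and 676 CPM in WM-1119 replicates 1, 2 and 3, against 389, 477 and 553 CPM in DMSO replicates 1, 2 and 3. Every WM-1119 library lay above every DMSO library, as in 3.76% of all regions and 19.6% of leading regions with a mean of 100 to 700 CPM. The estimated log2 change was 0.50 ± 0.13 (SE; adjusted p by limma = 0.194). With the replicate block limma's adjusted p was 0.00662, which changes the call. Without DMSO replicates 1 and 2 the log2 change was 0.26, and it ran from 0.36 to 0.62 with 1 library left out. It passed without DMSO replicate 3 (log2 change 0.62, limma adjusted p = 0.00571) and in none of the other 5 fits that left out 1 library. Leaving out DMSO replicate 3 raised the number of regions called to 19600, and CEBPA, CEBPG and GFI1 leading regions also passed there (limma adjusted p = 0.0259, 0.00784 and 0.0100). The CEBPD region passed after background subtraction too (limma adjusted p = 0.00637).

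CEBPA, the founding member of the family, held 347, 466 and 455 CPM in the WM-1119 libraries and 275, 353 and 448 CPM in the DMSO libraries. The groups overlapped, since DMSO replicate 3 lay beside the higher WM-1119 libraries. Its estimated log2 change was 0.25 ± 0.15 (SE; adjusted p by limma = 0.395) and -0.10 without DMSO replicates 1 and 2. CEBPB, whose factor acts in monocytes and emergency granulopoiesis, held 160, 150.5 and 161 CPM in WM-1119 and 143, 122 and 128 CPM in DMSO. The groups did not overlap, and the estimated log2 change was 0.26 ± 0.16 (SE; adjusted p by limma = 0.398), with 0.29 without DMSO replicates 1 and 2. CEBPG, the dimer partner, held 210, 229 and 255 CPM in WM-1119 and 158, 164 and 215 CPM in DMSO. Its groups overlapped by WM-1119 replicate 1 and DMSO replicate 3, and its estimated log2 difference was 0.38 ± 0.15 (SE; limma adjusted p = 0.34), or 0.10 without DMSO replicates 1 and 2.

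CEBPE, the late granulocyte factor, was weakly marked, with 11.7, 12.3 and 9.60 CPM in WM-1119 and 23.6, 13.1 and 10.7 CPM in DMSO. The DMSO values in replicates 1 and 2 rest on 17 reads each. Apart from DMSO replicate 1 the libraries lay within a narrow band, and the log2 change of -0.39 ± 0.35 (SE; adjusted p by limma = 0.517) was 0.05 without DMSO replicates 1 and 2. CEBPE thus had no detectable difference at this depth.

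Among the other factors, GFI1, a repressor that recruits the demethylase KDM1A, held 571, 676 and 677 CPM in WM-1119 and 441, 516 and 638 CPM in DMSO. The groups overlapped, and the estimated log2 change was 0.28 ± 0.13 (SE; adjusted p by limma = 0.364), against 0.00 without DMSO replicates 1 and 2. IRF8, the monocyte and dendritic cell factor, held 110, 133 and 131 CPM in WM-1119 and 87.6, 129 and 141 CPM in DMSO, and the log2 difference between the groups was 0.09 ± 0.17 (SE; limma adjusted p = 0.73), or -0.17 without DMSO replicates 1 and 2. DMSO replicates 1 and 3 enclosed all 3 WM-1119 libraries.

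Both Krüppel-like factor genes had their lowest value in replicate 3 of each group. KLF4, which pushes myeloid cells towards monocytes, held 71.1, 77.6 and 46.0 CPM in WM-1119 replicates 1, 2 and 3 and 47.3, 63.2 and 38.2 CPM in DMSO replicates 1, 2 and 3. WM-1119 replicate 3 lay below both higher DMSO libraries, so the groups overlapped, although WM-1119 was higher within each of the 3 replicate numbers. The estimated log2 change was 0.38 ± 0.20 (SE; adjusted p by limma = 0.381), or 0.71 without DMSO replicates 1 and 2. KLF2 held 49.5, 63.2 and 34.9 CPM in WM-1119 and 63.9, 44.7 and 22.6 CPM in DMSO, where DMSO replicate 1 was the highest of the 6 libraries. Its estimated log2 change was 0.24 ± 0.31 (SE; adjusted p by limma = 0.636), it was -0.16 without DMSO replicate 3 and 1.05 without DMSO replicates 1 and 2, so DMSO replicate 3 decides the value.

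**Figure D2:**
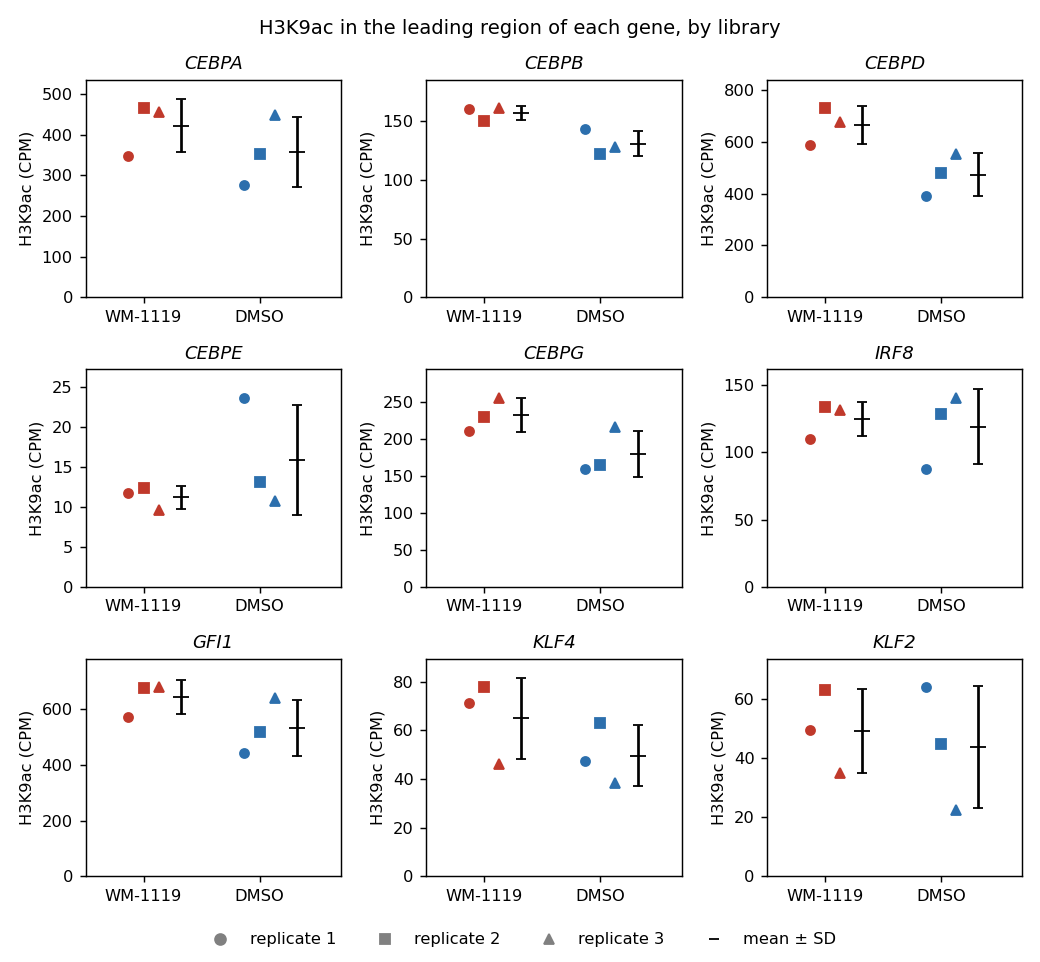
H3K9ac of the leading region in CPM for each of the 9 genes, with 1 point per library (circle, square and triangle for replicates 1, 2 and 3), WM-1119 left and DMSO right, and the mean ± SD beside them. The groups are separate at CEBPB and CEBPD and overlap at the other 7 genes.

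The distal rows ran the other way from the leading regions, and none passed. Of 29 tested distal rows 27 were lower in WM-1119 and 2 higher, with a median log2 change of -0.65, and 8 had WM-1119 libraries all below the DMSO libraries. Of the 11685 tested regions over 1 kb from every coding gene 90.3% were lower, with a median of -0.60, and 17.4% had groups that did not overlap in this direction, so the direction of the distal rows was also that of most regions away from coding genes. limma's adjusted p for the distal rows ran from 0.314 to 0.947. Without DMSO replicates 1 and 2, 23 distal rows were tested, of which 16 were lower and 7 higher, with a median of -0.09, beside 0.07 over the regions away from coding genes. Under quantile normalization 20 of the 29 were lower and 9 higher, with a median of -0.14, and under median centring 11 were lower and 18 higher, with a median of 0.12. The lower values of weak rows in WM-1119 moved with the larger share of CPM that DMSO replicates 1 and 2 had in weak regions, whose part in the result was not tested.

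The 5 distal rows with a mean of at least 10 CPM belonged to CEBPA, CEBPG, IRF8 and GFI1. All 5 were lower in WM-1119 in CPM and under quantile normalization, and all 5 were higher under median centring. Their median log2 change in CPM was -0.63, and 4 had an unadjusted p under 0.05. Of the 1894 regions away from coding genes with a mean of 10 to 100 CPM 77% were lower, with a median of -0.32, and 23% were lower with an unadjusted p under 0.05. Without DMSO replicates 1 and 2, 4 of the 5 were lower, with a median of -0.28, beside -0.03 over those regions. In 3 of the 5, both IRF8 rows and that of GFI1, the 3 WM-1119 libraries also lay below DMSO replicate 3, as in 32.8% of those regions.

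GFI1 had a distal row 11179 bp beyond its end, at chromosome 1 position 92459348 to 92461864. It held 21.8, 24.3 and 25.7 CPM in WM-1119, against 43.1, 41.6 and 33.0 CPM in DMSO. All WM-1119 libraries lay below all DMSO libraries. The estimated log2 change was -0.68 ± 0.23 (SE; adjusted p by limma = 0.314) and -0.45 without DMSO replicates 1 and 2.

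IRF8 had 2 such rows, beyond its end. The row 4772 bp away, at chromosome 16 position 85927381 to 85929491, held 12.5, 22.6 and 24.8 CPM in WM-1119 and 30.6, 31.6 and 28.9 CPM in DMSO. Its groups did not overlap, and its estimated log2 change was -0.63 ± 0.26 (SE; adjusted p by limma = 0.344), with -0.56 without DMSO replicates 1 and 2. The row 13038 bp away, at 85935647 to 85937163 within the non-coding gene LINC02132, held 11.4, 11.7 and 15.5 CPM in WM-1119 and 22.2, 23.9 and 15.8 CPM in DMSO. It was also separate, with WM-1119 replicate 3 and DMSO replicate 3 close together, and its estimated log2 change was -0.63 ± 0.31 (SE; adjusted p by limma = 0.368), or -0.28 without DMSO replicates 1 and 2.

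CEBPA had a row 5277 bp downstream, at chromosome 19 position 33292362 to 33294657, with 43.8, 66.6 and 59.3 CPM in WM-1119 and 68.1, 64.7 and 63.0 CPM in DMSO. The groups overlapped through WM-1119 replicate 2, and the estimated log2 change was -0.22 ± 0.19 (SE; adjusted p by limma = 0.504), or -0.17 without DMSO replicates 1 and 2. The CEBPG row lay 10836 bp downstream inside the neighbouring gene PEPD, at 33393522 to 33395216, with 19.4, 18.1 and 19.0 CPM in WM-1119 and 47.3, 32.3 and 17.1 CPM in DMSO. DMSO replicate 3 lay below all WM-1119 libraries there, and the log2 change of -0.63 ± 0.27 (SE; adjusted p by limma = 0.352) was 0.13 without DMSO replicates 1 and 2.

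**Figure D3:**
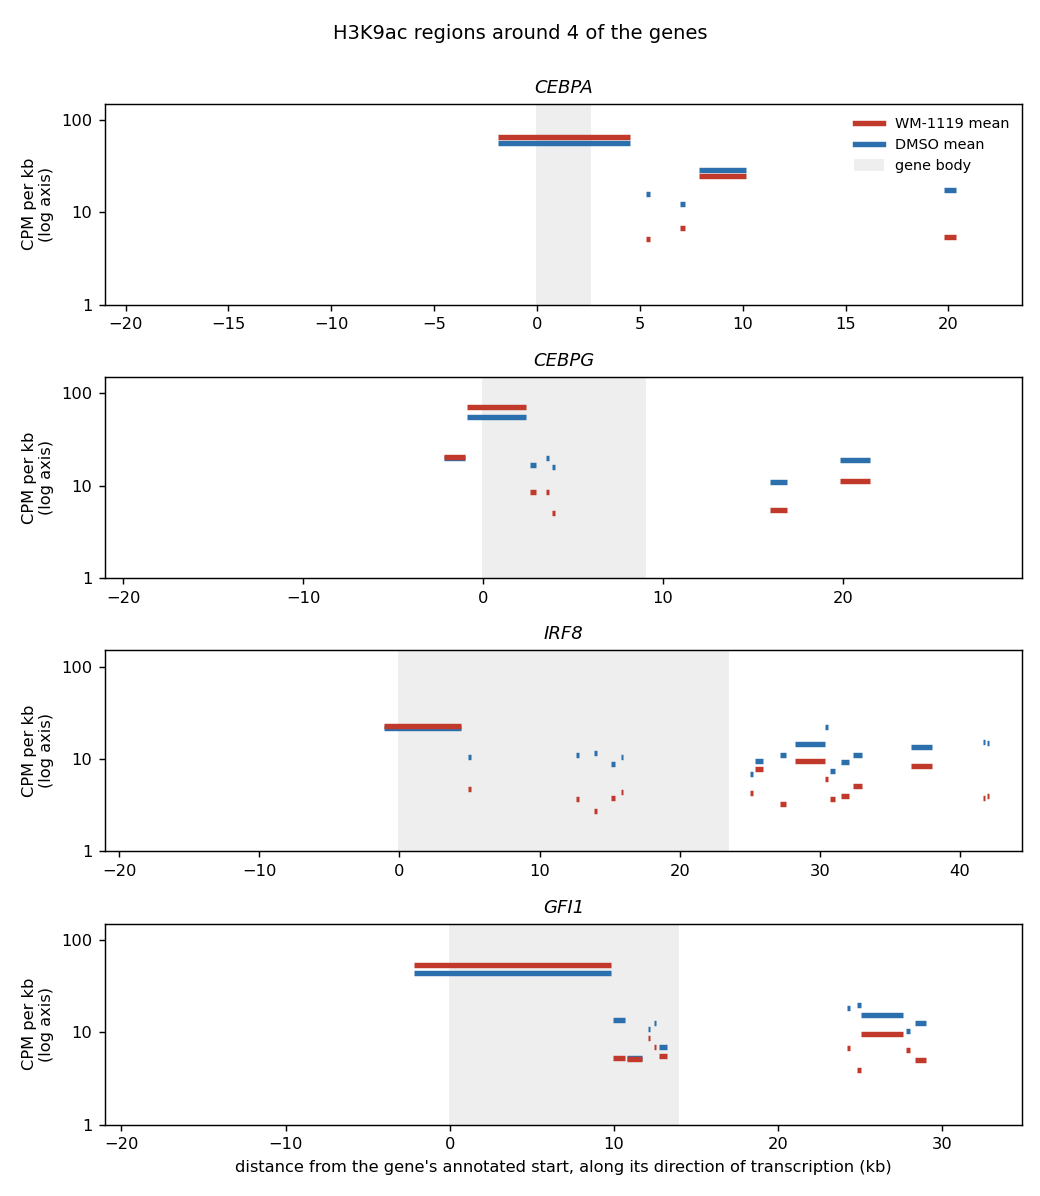
H3K9ac regions around CEBPA, CEBPG, IRF8 and GFI1, drawn to scale along the distance from the annotated start (kb), each bar at its mean CPM per kb (log axis) in WM-1119 and in DMSO, with the gene body in grey. At the starts the WM-1119 bar lies at or above the DMSO bar, and downstream of each gene the WM-1119 bars lie below.

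**Figure D4:**
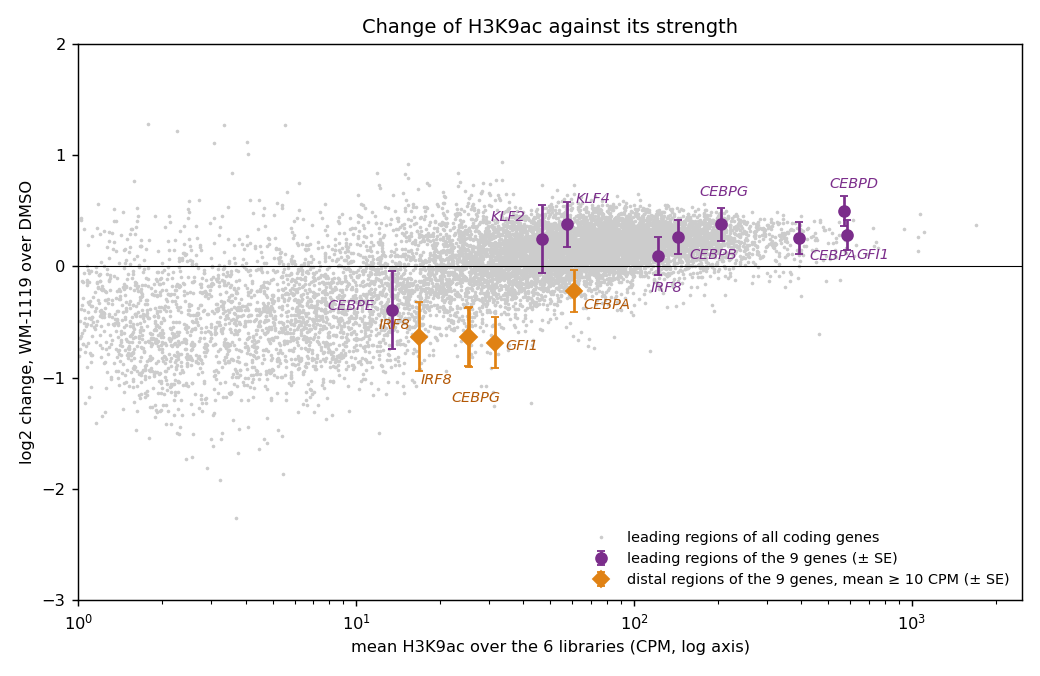
Log2 change of H3K9ac, WM-1119 over DMSO, against the mean CPM over the 6 libraries (log axis), for the leading regions of all coding genes in grey, the 9 leading regions and the 5 stronger distal rows with SE bars. CEBPD lies at the upper edge of the cloud of other genes and the other 8 leading regions lie within it, and the distal rows of IRF8, CEBPG and GFI1 lie near -0.63 to -0.68.

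IRF8 had the most rows of the 9 genes, 17, of which 16 were lower in WM-1119 in CPM, 15 under quantile normalization and 8 under median centring. Over all tested regions 77.2%, 48.6% and 27.4% were lower in these 3 scalings. Among regions away from coding genes with a mean of 1 to 10 CPM 93.5% were lower in CPM, and the count of 16 is near that share. That set is only partly alike, since 6 of the 17 IRF8 rows were nearest rows. Without DMSO replicates 1 and 2 all 11 IRF8 rows tested were lower, beside 25 of 44 rows of the 9 genes. The median log2 change of all regions was then 0.06. In 8 of the 17 all WM-1119 libraries lay below all DMSO libraries, beside 13.2% of all tested regions. In 11 of the 17 they lay below DMSO replicate 3 alone, beside 21.2% of all tested regions. These rows share 1 locus and are not independent, and apart from 3 of them their means were under 10 CPM. For comparison, GFI1 had 11 rows, with 3 separate in this direction and 4 below DMSO replicate 3, and at KLF2 0 of 5 lay below DMSO replicate 3 and 4 above it, beside 32.9% of all tested regions above.

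Nearest and distal rows of a gene were also summed, as 1 window per gene, and fitted over the windows of 15509 coding genes. No window passed limma's adjusted threshold, while 747 in the higher direction (4.82%) and 644 in the lower one (4.15%) had an unadjusted p under 0.05, and edgeR called 0 and DESeq2 2 on 5 libraries. Neighbouring windows share rows. Of the 9 genes 7 had a log2 change above 0 in their window and 2 below, beside 53.8% and 46.2% of all windows. Separate groups occurred at CEBPD and CEBPB, both higher, beside 9.45% of windows, and at IRF8, lower, beside 6.02%.

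The IRF8 window summed to 154, 189 and 192 CPM in WM-1119 and 196, 244 and 211 CPM in DMSO. Every WM-1119 sum lay below every DMSO sum, although the leading region did not differ in this way. The estimated log2 change was -0.28 ± 0.12 (SE; adjusted p by limma = 0.539) and -0.25 without DMSO replicates 1 and 2. The CEBPB window summed to 161, 152 and 162 CPM in WM-1119 and 145, 127 and 129 CPM in DMSO, and its log2 difference was 0.25 ± 0.10 (SE; limma adjusted p = 0.539), or 0.30 without DMSO replicates 1 and 2. The CEBPD window is its leading region alone, and it passed with the replicate block (limma adjusted p = 0.000135), where 2.41% of windows were called higher and 3.14% lower. The windows of the other 6 genes had log2 changes from -0.33 at CEBPE to 0.20 at KLF4. The smallest was 0.01 at KLF2, whose mean was the lower one in WM-1119, at 70.8 CPM against 76.5 CPM in DMSO. The values without DMSO replicates 1 and 2 ran from -0.10 at CEBPA to 1.05 at KLF2, with 0.70 at KLF4 and 0.24 at CEBPE.

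The share of a window's CPM in distal rows gave the balance within each gene. It was 25.2%, 27.3% and 29.9% at IRF8 in WM-1119 replicates 1, 2 and 3, against 49.6%, 41.3% and 30.2% in DMSO replicates 1, 2 and 3. At GFI1 it was 4.75%, 4.31% and 4.47% in WM-1119 and 13.5%, 9.94% and 5.99% in DMSO, and at KLF2 5.97%, 5.70% and 7.91% in WM-1119 and 9.33%, 15.0% and 11.8% in DMSO. At these 3 genes all WM-1119 shares lay below all DMSO shares. The KLF2 shares rest on few reads: its 2 distal rows held 1 and 6 reads in DMSO replicate 1 and 3 and 15 in DMSO replicate 2. At CEBPA, CEBPG and KLF4 DMSO replicates 1 and 2 were higher than the WM-1119 libraries and DMSO replicate 3 was among them.

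The difference between the distal and the nearest sum, log2(distal + 1) minus log2(nearest + 1), was tested with limma over 9186 coding genes with both kinds of row. It was lower in WM-1119 at 7 of the 8 genes with distal rows and higher at CEBPE, with a median of -0.82, beside -0.15 over all genes, of which 63.3% were lower. The genes behind -0.15 were not matched for strength. Among single regions, leading regions of 100 to 700 CPM had a median of 0.24, and regions of 1 to 10 CPM away from coding genes -0.65. Strong leading regions and weak distant regions thus ran apart in this direction over all genes too. An unadjusted p under 0.05 was reached at 3 genes, GFI1 (-1.11 ± 0.34, SE), KLF2 (-0.85 ± 0.28, SE) and IRF8 (-0.81 ± 0.33, SE), and 9.39% of all genes had separate groups in this direction. None of the 8 passed, with limma adjusted p from 0.573 to 0.640, and of all genes 0 passed, while 117 in the higher direction (1.27%) and 503 in the lower one (5.48%) had an unadjusted p under 0.05. Without DMSO replicates 1 and 2 the median of the 8 was -0.11, with 5 lower, beside 0.01 over all genes, and the values were -0.42 at GFI1, -0.96 at KLF2 and -0.19 at IRF8. The KLF2 value came with higher nearest rows, whose log2 changes were then 1.05, 1.06 and 1.27. The KLF2 distal row tested there had 0.10, so it was not lower.

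**Figure D5:**
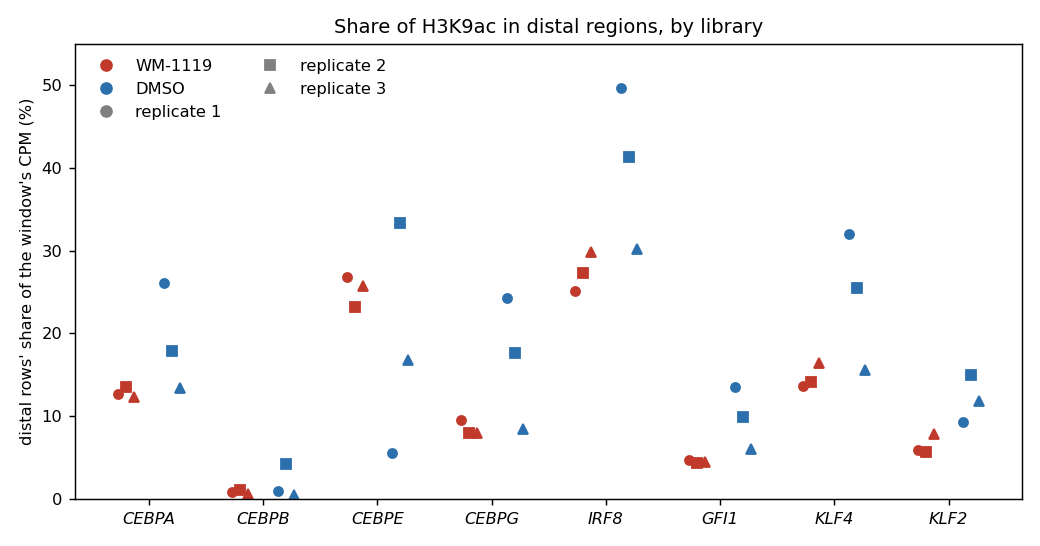
Share of the summed CPM of each gene's window that lies in distal rows (%), 1 point per library, WM-1119 left and DMSO right of each gene's label (circle, square and triangle for replicates 1, 2 and 3); CEBPD has no distal row. WM-1119 libraries lie below all DMSO libraries at IRF8, GFI1 and KLF2, and DMSO replicates 1 and 2 are highest at CEBPA, CEBPG, IRF8, GFI1 and KLF4.

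Beyond 20 kb, 37 rows lay 20 to 100 kb from a member that was their nearest coding gene, and 8 of them had a mean of at least 10 CPM, at CEBPA (4), IRF8 (3) and KLF2 (1). In blood cells both CEBPA and IRF8 are known to have enhancers at such distances. All 8 were lower in WM-1119 in CPM, with a median log2 change of -0.35, and 5 were lower without DMSO replicates 1 and 2, with a median of -0.07. Groups were separate at 1 of the 8, and among regions of 10 to 100 CPM away from coding genes 77% were lower and 22.2% separate. The strongest lay 59.3 kb downstream of IRF8, at chromosome 16 position 85981874 to 85985932, with 74.4, 152 and 147 CPM in WM-1119 and 100, 158 and 179 CPM in DMSO. The groups overlapped (log2 change -0.25 ± 0.30, SE; limma adjusted p = 0.629; -0.59 without DMSO replicates 1 and 2). The row beside it, 55.05 kb downstream at 85977656 to 85979618, had the separate groups, with 18.1, 26.9 and 23.3 CPM in WM-1119 and 32.0, 29.3 and 37.3 CPM in DMSO (log2 change -0.52 ± 0.24, SE; limma adjusted p = 0.363; -0.71 without DMSO replicates 1 and 2). The strongest row around CEBPA, 30.8 kb downstream at chromosome 19 position 33266518 to 33269101, held 44.3, 64.3 and 61.2 CPM in WM-1119 and 80.6, 55.5 and 60.0 CPM in DMSO, with groups that overlapped (log2 change -0.20, or -0.10 without DMSO replicates 1 and 2).

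Genes were also ranked by how alike their leading regions' profiles over the 6 libraries were. Likeness was the root mean square difference between log2(CPM + 1) profiles centred on their own means, among leading regions of other genes with a mean within 2-fold. The profile most like that of CEBPD was CPEB2 at 0.06, with 698 CPM in WM-1119 and 526 CPM in DMSO, and the next was NCOA2 at 0.08. For GFI1 the nearest was ZBTB7A at 0.03, for CEBPA WNK1 at 0.05, for CEBPB PLK2 at 0.03, for CEBPG REEP4 at 0.03 and for IRF8 LRRC27 at 0.03. KLF4 and KLF2 had less close neighbours, ERG28 at 0.13 and MAK at 0.16, and CEBPE was nearest to ZNF680 at 0.06. The median difference over all candidates was also larger at KLF4 and KLF2, 0.40 and 0.57. For the other genes it ran from 0.12 at GFI1 to 0.39 at CEBPE. The ERG28 region is also listed for TTLL5 and the LRRC27 region for STK32C.

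Genes that work with these factors were read by their leading regions, and none passed the adjusted threshold. Of 10 partners and regulators of C/EBP proteins 8 were higher and 2 lower, with a median log2 change of 0.21. The smallest p was that of ATF4, which can pair with C/EBPγ, at 173, 178 and 193 CPM in WM-1119 and 107, 139 and 183 CPM in DMSO (limma adjusted p = 0.353), with a log2 change of 0.37, or -0.02 without DMSO replicates 1 and 2. Of 20 other myeloid factors 13 were higher and 7 lower, with a median of 0.10 and 4 at an unadjusted p under 0.05, all higher, led by IRF5 and IRF2, whose log2 changes of 0.48 and 0.36 were 0.19 and 0.14 without DMSO replicates 1 and 2. An unadjusted p under 0.05 in this direction was reached by 24.8% of all leading regions of 100 to 700 CPM and 6.54% of those of 10 to 100 CPM. Of 13 other Krüppel-like factor genes 9 were higher and 4 lower, with a median of 0.23, led by KLF10 (log2 change 0.43 ± 0.15, SE; limma adjusted p = 0.329; 0.77 without DMSO replicates 1 and 2). All 6 relatives and corepressors of GFI1 had a log2 change above 0, that of KDM1A being 0.01 with the lower mean in WM-1119, and the median was 0.32, led by RCOR1 (0.43 ± 0.15, SE; limma adjusted p = 0.321; 0.15 without DMSO replicates 1 and 2). Only 2 of the 6 were above 0 without DMSO replicates 1 and 2 and 4 were below, with a median of -0.06. Without those libraries the partners were 5 higher and 5 lower (median 0.01), the other myeloid factors 12 higher and 7 lower (0.19) and the other Krüppel-like factor genes 9 higher and 3 lower (0.13). The medians over all 6 libraries stand beside 0.24 over leading regions of 100 to 700 CPM and 0.11 over those of 10 to 100 CPM.

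Of 20 known C/EBP target genes of granulocytes and monocytes, 10 had a leading region that averaged 10 CPM or more, and 5, CAMP, FCGR1A, LCN2, LTF and S100A12, had no region within 1 kb. Of the 14 tested 6 were higher and 8 lower, with a median log2 change of -0.13. This turned round without DMSO replicates 1 and 2, with 8 higher and 6 lower and a median of 0.13. CTSG, the gene of cathepsin G, a protease of immature granulocytes, had the smallest p of all lists. It held 14.3, 17.3 and 20.7 CPM in WM-1119, against 29.2, 53.1 and 33.7 CPM in DMSO, and all WM-1119 libraries were lower. Its estimated log2 change was -1.07 ± 0.25 (SE; adjusted p by limma = 0.0665), and -0.93 without DMSO replicates 1 and 2, and it passed with the replicate block (limma adjusted p = 0.00162). The other granule protease genes PRTN3 and ELANE had higher means in WM-1119, with log2 changes of 0.40 ± 0.18 and 0.36 ± 0.17 (SE), or -0.02 and 0.13 without DMSO replicates 1 and 2, and did not pass.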

How the data were processed

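MOLM-13 cells were profiled by H3K9ac ChIP-seq with 3 WM-1119 and 3 DMSO libraries; the 6 input samples were not analysed here. Values on hg38 regions are called TPM in the name under which they were deposited. Each library sums to 1000000 with no length term, so the authors deposited what is CPM. Per the submitters' processing notes, Bowtie2, SAMtools, MACS2 and bedtools were used, with no versions or roles. No source used here tells how regions were merged. Since CPM sums to the same total in each library, a gain or loss across the whole genome cannot be seen.

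Genes were placed with RefSeq GRCh38.p14. Regions whose mean reached 1 CPM, summed windows of 20 kb each side, and the distal against nearest difference were fitted with limma 3.58.1 (R 4.3.3, robust). Values were on the scale of log2(CPM + 1), with Benjamini-Hochberg adjustment over each whole set. Trend was used for regions and windows but not for the difference, which is a ratio. Low values were whole multiples of 1 read within 0.02 reads in each library. Recovered reads of 5 libraries were tested with edgeR 4.0.16 and DESeq2 1.42.0 as alternatives. WM-1119 replicate 2 was left out of these tests, since it had not passed a separate check for whole reads. The fits were tested on simulated data with the depths of these libraries and the same spread in each. The simulated libraries had no excess in weak regions like that of DMSO replicates 1 and 2. They therefore cannot tell how the fits behave with that excess. No 2 libraries agreed within sampling noise. Stronger distal rows were named at a mean of at least 10 CPM, and in each gene list the genes of smallest p. The 9 members and the lists were chosen with earlier results of these data known. One further marker list is not reported here.

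Same-numbered libraries deviated together: the correlations of their deviations from the group means over 14323 regions were 0.461, 0.172 and 0.527 for numbers 1, 2 and 3, and -0.473 to 0.0663 for other pairs. The numbers were taken as pairs on this basis, and a fit with the replicate block was run beside the unblocked one. The labels do not say what same-numbered libraries shared. In both groups depth rose and the share of CPM in weak regions fell with the replicate number. Their part in these correlations was not tested. Calls with the replicate block rest on this pairing, which was read from the same data. Other alternatives were the pseudocount, filters, scaling, array weights, a background subtraction, window sizes and each library left out.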

Additional observations from a re-analysis of the deposited data

How the results depend on the processing

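The count of 27 regions called by limma depended on the setting. It was 2 among regions averaging 10 CPM or more, 1 with quantile normalization and 2 with median centring. With the replicate block it was 496, without trend and robust fitting 0, with array weights 34995 and after background subtraction 92. With edgeR or DESeq2 it was 0. It ran from 0 to 19600 with 1 library left out, the highest without DMSO replicate 3. The array weights did not converge. The 0 windows called became 860 with the replicate block, 10390 with array weights, 2 with DESeq2 and 0 to 2812 with 1 library left out. The 0 distal against nearest differences called became 5692 with array weights and 0 to 2463 with 1 library left out. The cause was not tested.

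Of 585 alternative values of 31 single results, 508 kept direction and call, 39 newly passed and 38 reversed, and 14 results never reversed. Of the 39, 23 came from the array weights, which did not converge. Without DMSO replicate 3, 4 leading regions, 3 distal rows, 1 window and 5 distal against nearest differences newly passed. The replicate block changed 2 of the 31 calls, those of the CEBPD region and window, and among list genes those of CTSG and of LAMP5 (log2 change -0.61, limma adjusted p = 0.000308). Leading regions reversed as follows, in log2 change: CEBPA -0.10 without DMSO replicates 1 and 2; CEBPE 0.026 (quantile), 0.38 (median centring), 0.053 (without DMSO replicates 1 and 2) and 0.049 (DESeq2). IRF8 gave -0.096 (quantile), -0.17 (without DMSO replicates 1 and 2) and -0.11 to 0.23 with 1 library left out, the lowest without DMSO replicate 1, and KLF2 -0.16 to 0.57, the lowest without DMSO replicate 3. Distal rows reversed with median centring, to 0.55 at CEBPA, 0.14 at CEBPG, 0.14 at both IRF8 rows and 0.087 at GFI1. The CEBPA row was also 0.099 with edgeR and 0.19 with DESeq2, and the CEBPG row 0.13 without DMSO replicates 1 and 2. Windows reversed at CEBPA to -0.0098 (quantile), -0.10 (without DMSO replicates 1 and 2) and -0.080 (50 kb), at CEBPE to 0.19 (quantile) and 0.24 (without DMSO replicates 1 and 2), and at GFI1 to -0.021 (without DMSO replicates 1 and 2). The KLF4 window was -0.14 with array weights and -0.046 to 0.42 with 1 library left out, the lowest without DMSO replicate 3. The KLF2 window, 0.01, had no stable sign: -0.013 (median centring), -0.34 (array weights), -0.50 to 0.32 with 1 library left out (below 0 without WM-1119 replicate 1, WM-1119 replicate 2 or DMSO replicate 3), -0.042 (50 kb), -0.17 (edgeR) and -0.27 (DESeq2). The distal against nearest difference reversed at CEBPB to 0.093 (quantile), 0.27 (without DMSO replicates 1 and 2) and -1.03 to 0.032 with 1 library left out (above 0 without DMSO replicate 2), at CEBPE to -0.45 (array weights) and at CEBPG to 0.0064 (without DMSO replicates 1 and 2). Depth limits the weak rows: 3 reads are 4.17 CPM in DMSO replicate 1.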
